A study of Mus musculus with 42 samples.

Results

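Input libraries are sequenced from sheared chromatin that was never exposed to an antibody, so a locus that passes a search for enriched regions in every one of them is enriched without any immunoprecipitation. The 6 input region lists of the series were merged where regions overlapped by at least 1 bp, and a merged region was kept when all 6 lists contributed to it. This left 8193 regions of 196005 (4.18%), called recurring regions here. The other merged regions were found in 1 list (106247), 2 lists (32234), 3 lists (18421), 4 lists (14140) or 5 lists (16770). Membership therefore rests on the input lists alone. Input values at recurring regions are given as descriptions without tests, whereas the H3K27ac and Pol II libraries took no part in the choice.

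The chromatin came from bone marrow-derived macrophages (BMDMs) of male C57Bl6/J mice aged 6 to 12 weeks, grown from bone marrow for a week in medium conditioned by L929 cells. Donors were wild-type (WT) littermates or whole-body Nur77 knockout (KO) mice, derived by crossing a loxP-flanked Nr4a1 allele to a CMV-Cre line and later bred free of Cre, although the genotype label of the KO libraries reads only "cre". Nr4a1 encodes Nur77, an orphan nuclear receptor. Cells received lipopolysaccharide (LPS, a bacterial wall component) at 100 ng/ml for 0, 1 or 18 h. Each of the 6 groups had 1 input, 3 H3K27ac and 3 Pol II libraries, 42 in all. The authors' methods call the replicates behind their merged peaks biological, but nothing in the labels ties a replicate to a separate animal. The p-values therefore measure the spread between these libraries, which may be technical.

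Formaldehyde crosslinking and sonication do not break chromatin evenly. Open, transcribed chromatin shears more readily and tends to be over-represented in input DNA, and satellite arrays that the reference assembly holds in too few copies collect reads from all of their genomic copies. Acetylation of histone H3 at lysine 27 (H3K27ac) marks active promoters and enhancers, and RNA polymerase II (Pol II) marks initiating and elongating transcription. LPS acts on macrophages through TLR4 and switches on NF-kB and AP-1 targets within the first hour and interferon-driven genes later. Macrophages keep a large open enhancer repertoire built on the lineage factor PU.1.

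Several kinds of locus stood out among the recurring regions, and 1 window of 300 bp is printed for each from the mm10 reference, 5′ to 3′, in lower case with every CG dinucleotide in capitals. The first is the centre of the densest region, chr12:3109862-3110161 on the plus strand, in which 92.33% of the bases are repeat-masked. The second is the centre of the widest, chr11:86604871-86605170 on the plus strand in an intron of Vmp1, with 13.33% masked. The other windows lie upstream of LPS-responsive genes, at chr12:55492648-55492947 for Nfkbia and chr12:26456453-26456752 for Rsad2, both on the minus strand. None of these windows overlaps an annotated exon.
Densest region, chromosome 12: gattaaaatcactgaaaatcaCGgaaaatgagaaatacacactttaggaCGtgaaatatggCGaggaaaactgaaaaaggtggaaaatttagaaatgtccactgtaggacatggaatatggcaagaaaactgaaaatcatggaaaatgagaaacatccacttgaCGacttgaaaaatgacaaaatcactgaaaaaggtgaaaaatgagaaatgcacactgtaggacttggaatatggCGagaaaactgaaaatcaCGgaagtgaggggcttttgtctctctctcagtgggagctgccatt
Widest region, Vmp1 intron: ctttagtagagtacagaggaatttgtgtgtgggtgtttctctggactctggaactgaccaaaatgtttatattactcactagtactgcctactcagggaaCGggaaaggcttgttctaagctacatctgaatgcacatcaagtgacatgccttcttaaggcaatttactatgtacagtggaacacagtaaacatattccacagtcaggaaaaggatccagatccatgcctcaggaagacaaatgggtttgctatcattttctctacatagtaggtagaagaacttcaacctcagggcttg
Nfkbia upstream: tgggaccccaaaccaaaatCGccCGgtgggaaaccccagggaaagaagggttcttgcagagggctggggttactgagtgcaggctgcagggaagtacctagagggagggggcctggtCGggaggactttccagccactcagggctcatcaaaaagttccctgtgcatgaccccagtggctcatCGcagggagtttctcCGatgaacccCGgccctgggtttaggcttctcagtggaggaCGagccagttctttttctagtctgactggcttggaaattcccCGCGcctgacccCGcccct
Rsad2 upstream: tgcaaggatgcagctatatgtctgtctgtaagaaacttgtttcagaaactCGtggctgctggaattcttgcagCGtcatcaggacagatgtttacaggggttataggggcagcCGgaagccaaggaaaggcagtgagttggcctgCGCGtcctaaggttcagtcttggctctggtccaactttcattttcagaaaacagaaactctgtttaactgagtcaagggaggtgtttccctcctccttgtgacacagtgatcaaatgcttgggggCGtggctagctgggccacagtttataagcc

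The Nfkbia window holds 10 CG and has a GC content of 59.3%, whereas the window of the widest region holds 1 CG and that of the densest region 6. The Rsad2 window holds 6 CG and 1 match to the AP-1 motif TGANTCA, where N is any base, searched on both strands. The other windows hold no match. The recurring region around the Nfkbia window spans 11134 bp (chr12:55484537-55495670) and that around the Rsad2 window 23690 bp (chr12:26438136-26461825).

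The input taken from KO cells at 18 h stood apart from the other 5. Its list held 27554 regions with 6.18% of its tags (aligned reads) in them, against 64725 to 108461 regions and 11% to 19.8% of tags elsewhere. Its depth of 38.9 M tags lay within the 25.6 to 45.3 M (mega) tags of the other inputs. Of the 16770 regions found in 5 lists, 14578 (86.9%) were missing only there. Without this library, 22787 regions recurred in the remaining 5 inputs. The width, the gene-start and gene-list counts, the regions per Mb and the overlap with immunoprecipitated regions are given with and without it. So are the density over all positions, the LPS change in share and the counts of calls for H3K27ac and Pol II. Sequence content, input changes, named regions, genotype differences in share and densities split by gene start are given for the 6-input rule only. The KO 18 h list covered a median of 15.1% of a recurring region, against 46.0 to 70.3% in the others. Across 8125 recurring regions, Spearman's rho between inputs for the covered width was 0.72 to 0.85 without it and 0.36 to 0.38 with it. For the density it was 0.23 to 0.39 without it and 0.015 to 0.055 with it. These correlations describe regions chosen from the same lists. HOMER estimated fragment lengths of 614, 426 and 428 bp for the WT inputs of 0, 1 and 18 h and of 616, 214 and 214 bp for the KO inputs. The part of fragment length in the results was not tested.

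Recurring regions were broad. Their median width was 5064 bp (quartiles 3298 and 8091 bp), against 501, 932, 1330, 1880 and 2990 bp for regions found in 1 to 5 lists. Only 44 were under 1 kb, and 1439 (17.6%) exceeded 10 kb. Joined end to end they cover 55.5 Mb, or 2.03% of the genome. Merging favours wide regions, because each added list can extend a region. Positions covered by all 6 lists form pieces with a median width of 501 bp. Without the KO 18 h input the median width was 3616 bp.

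Gene starts were more frequent among recurring regions than among the rest. A protein-coding gene start (annotated transcription start ± 2500 bp, mm10, GENCODE vM21) was overlapped by 2056 recurring regions, which is 25.1% (95% Clopper-Pearson interval 24.2 to 26.0%, counting error only). The share was 5.56, 8.45, 11.4, 15.9 and 21.8% for regions found in 1 to 5 lists, and the windows themselves make up 3.72% of the genome. A further 3889 recurring regions (47.5%) lay in gene bodies and 2248 (27.4%) between genes. Those at gene starts had a median width of 6194 bp, those in gene bodies 4986 bp and those between genes 4377 bp. A wide region can meet a gene start more easily, and the part of width in the share was not tested. The share was 16.0% for the narrow pieces covered by all 6 lists and 23.9% without the KO 18 h input.

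**Figure D1:**
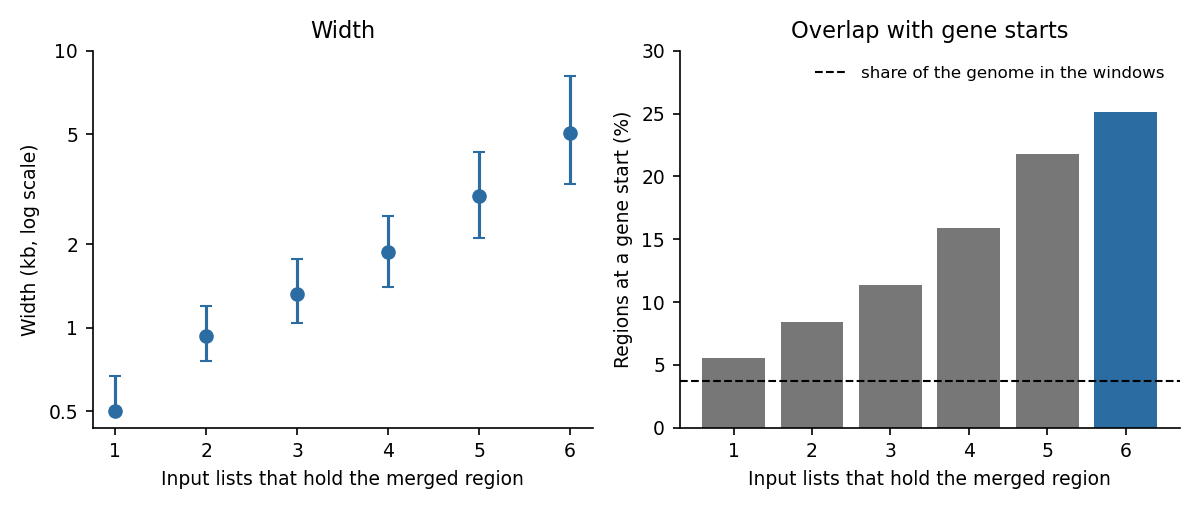
Left, median width (kb, log axis; bars, quartiles) of merged input regions by the number of input lists that hold them. Right, the percentage of those regions that overlap a protein-coding gene start, with recurring regions in blue and the dashed line at the 3.72% of the genome within the windows. Width rises from 501 bp in 1 list to 5064 bp in all 6, and the gene-start share from 5.56% to 25.1%.

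Recurring regions were spread over the autosomes and nearly lacking on the sex chromosomes. The autosomes held 8146, or 3.31 per Mb, with a range of 2.17 to 4.81 per Mb between chromosomes. The X chromosome held 7 (0.041 per Mb) and the Y chromosome 8 (0.087 per Mb), and the donors were male, with a single copy of each. Without the KO 18 h input the autosomes held 9.23 per Mb, X 0.094 and Y 0.087. Among all merged input regions the X chromosome was also low, with 6.93 per Mb against 79.0 per Mb on the autosomes. The mitochondrial genome formed 1 recurring region and unplaced contigs 31.

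The densest recurring regions were few. In 28 of them the mean over the 6 inputs exceeded 50 tags per kb (tags per 10 M tags of the library, per kb covered), and they held 1.90 to 2.51% of all tags in 5 inputs and 3.98% in the KO 18 h input. The highest on chromosomes 1 to 19, X and Y was an intergenic stretch of 1094 bp, chr12:3109466-3110559. It had 26274, 22135 and 17525 tags per kb in the WT inputs of 0, 1 and 18 h and 19086, 36577 and 88012 in the KO inputs. The KO 18 h value is the highest of the 6, and no order by LPS time is shared between genotypes. Next came chr2:98661734-98667880 at the predicted genes Gm10801 and Gm10800 (13877 to 49235 tags per kb), chr9:35304763-35306111 (3273 to 11677), a site in the body of the cell adhesion gene Chl1 at chr6:103648596-103649846 (2155 to 6057) and chr9:3000022-3007679 at Gm10722 (1500.3 to 3678). In each of these 5 the KO 18 h input was the highest. The mitochondrial genome, not counted among them, had a mean of 3588 tags per kb, below chr9:35304763-35306111 and above Chl1. Its share of tags was lowest in the KO 18 h input (0.1265%), against 0.385 to 1.08% in the others. The 28 regions took much less of the immunoprecipitated libraries, with 0.070 to 0.224% of H3K27ac tags and 0.166 to 0.654% of Pol II tags.

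Of the 5 widest recurring regions, 4 lay in gene bodies and 1 at a gene start. The widest, 75599 bp at chr11:86567222-86642820, overlaps Vmp1, which encodes a membrane protein needed for autophagy, and Mir21a. Its densities were 14.2, 16.7 and 19.5 tags per kb in the WT inputs of 0, 1 and 18 h and 12.7, 14.0 and 10.8 in the KO inputs. The others covered Spred1, an inhibitor of Ras signalling (66769 bp), Zeb2, a transcription factor of the myeloid lineage (65123 bp), Fnbp1l (61159 bp) and Lpp (60999 bp). All 5 had a higher density at 1 h than at 0 h in both genotypes. The WT density at 18 h was also above that at 0 h for all 5, whereas the KO density was lower for 4 and higher at Zeb2 (11.02 against 10.92 tags per kb).

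The margin of the rule was described by the 5 members with the least sequence covered in their weakest input and the 5 densest regions found in 5 lists. The region with the least sequence covered in its weakest input, chr12:120027391-120028980, had 325 bp there and 98.7 to 448 tags per kb. The next lay in Tango6, near Btg1, near Atxn7l3b and in Cop1, each with 500 bp covered in its weakest input and densities of 8.07 to 18.7 tags per kb. Just outside, the 5 densest lay on chromosomes 5, 6 and X, and each was missing from a WT input, at 11.3 to 52.0 tags per kb in the lists that held them.

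The typical recurring region had an input density close to the search threshold of its list. The medians were 12.2, 12.7 and 14.4 tags per kb in the WT inputs of 0, 1 and 18 h and 10.9, 11.6 and 11.1 in the KO inputs. That threshold corresponds to 11.4, 11.01 and 12.5 tags per kb for WT and 10.2, 10.9 and 10.8 for KO. The median log2 change from 0 h was 0.06 at 1 h and 0.24 at 18 h in WT, with 5229 (63.8%) and 7458 (91.0%) of 8193 regions higher. In KO it was 0.10 at 1 h and 0.02 at 18 h, with 6026 (73.6%) and 4597 (56.1%) higher. There is 1 input per genotype and time, so these changes have no replicate check. Divided by each list's threshold they became 0.11 at both times in WT and -0.01 and -0.07 in KO, so the direction in KO depends on the scale. Divided by each list's share of tags in regions, they were -0.55 and -0.61 in WT and 0.12 and 1.36 in KO, so the direction in WT depends on the scale too. Counted over the whole merged region, the KO change at 18 h was -1.91, in the library whose list covered 15.1% of a typical region.

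**Figure D2:**
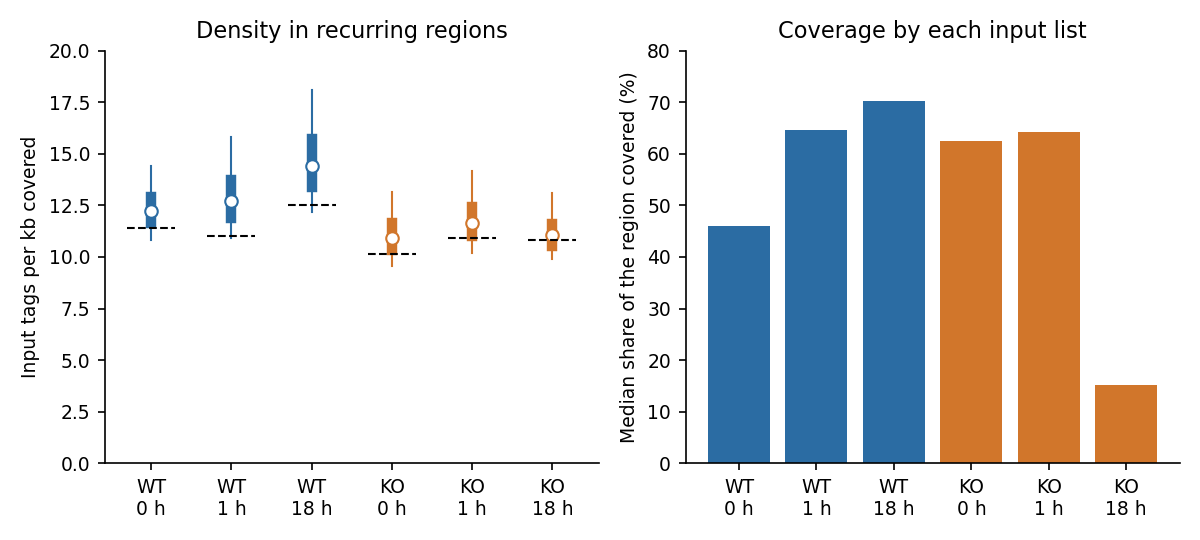
Left, input tags per kb covered in recurring regions for each of the 6 inputs (circle, median; thick bar, quartiles; thin bar, 5th to 95th percentile; dashed line, search threshold of the list). Right, the median percentage of a recurring region that each list covers. Densities sit just above the thresholds, at medians of 10.9 to 14.4 tags per kb, and coverage is 15.1% in the KO 18 h input against 46.0 to 70.3% in the others.

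Genes with a recurring region at their start were more often those with Pol II and H3K27ac there in untreated WT cells. In all, 2373 of 21897 protein-coding genes (10.8%) had one. Of 9942 genes listed at 0 Pol II tags within 2500 bp of the start at WT 0 h, 0.734% had one. Among the others, split into 5 equal groups from the lowest to the highest Pol II level, the share was 6.03, 10.2, 19.8, 23.8 and 35.9%. By H3K27ac level it was 0.607% for genes at 0 and 4.39, 6.72, 15.9, 26.0 and 44.1% over the 5 groups. A 0 means that no region passed the search there, not that no read was present. The share rose at each step for both antibodies. By the rule of the 5 other inputs, 5717 genes (26.1%) had one, and the share rose from 1.67 to 73.6% by Pol II level and from 1.26 to 85.3% by H3K27ac level.

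**Figure D3:**
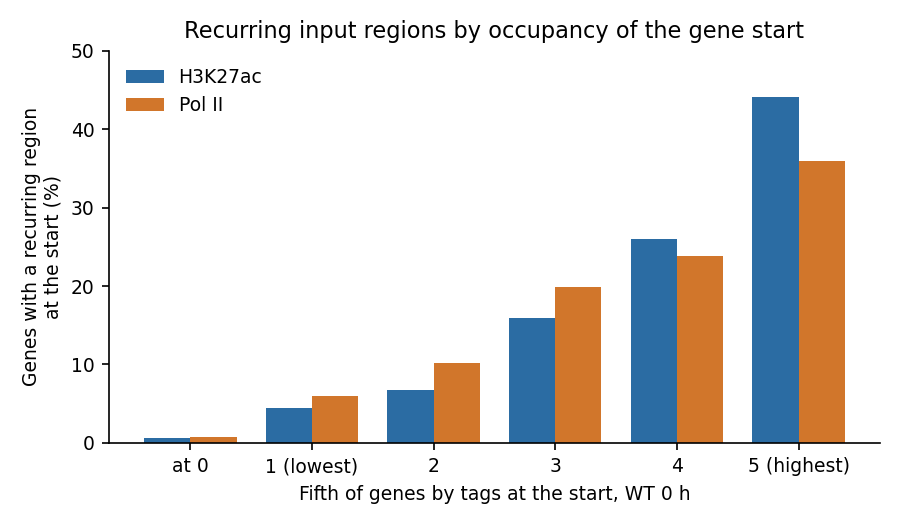
Percentage of protein-coding genes with a recurring input region within 2500 bp of their start, for genes listed at 0 and for 5 equal groups of the remaining genes by mean H3K27ac or Pol II tags there in the 3 untreated WT libraries. The share rises from 0.607% to 44.1% for H3K27ac and from 0.734% to 35.9% for Pol II.

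Macrophage markers had a recurring region at the start more often than all genes. Of 12 macrophage markers, 8 had one (Spi1, Csf1r, Adgre1, Cd68, Lyz2, Fcgr1, Itgam and Cebpb), against 10.8% of all genes. In the highest of the 5 groups of genes by level the share was 35.9% for Pol II and 44.1% for H3K27ac. The median levels of these groups were 264 and 568 tags. Whether the markers differ from genes of like level was not tested. Of markers of other cells that marrow cultures could hold, none of 8 for neutrophils, 5 for T cells, 5 for erythroid cells and 5 for fibroblasts had one. Of 5 B cell markers, 1 (Ms4a1, encoding CD20) and 2 of 4 dendritic cell markers (Clec9a and Xcr1) did. At WT 0 h, Pol II tags at the starts of these 3 genes were 35.5, 40.7 and 25.9 per 10 M, against a median of 462 over the 12 macrophage markers, and H3K27ac tags were 277, 241 and 305, against a median of 635. All 5 T cell and all 5 fibroblast markers were listed at 0 for Pol II at WT 0 h.

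Early LPS genes had a recurring region at 13 of 21 starts and interferon-response genes at 6 of 10 (Oasl1, Irf7, Rsad2, Cmpk2, Ifit2 and Ifit3). Late LPS genes had one at 2 of 10, Il1a and Acod1, the latter encoding the enzyme that makes itaconate. Replication-dependent histone genes, which are clustered and highly transcribed in dividing cells, had one at 37 of 64, lysosome genes at 8 of 15, reference genes at 3 of 10, glycolysis genes at 3 of 12 and cytosolic ribosomal protein genes at 14 of 80. Genes of other tissues had few. None of 39 Hox genes, 10 neuron, 10 liver and 10 muscle genes had one, and 7 of 1091 olfactory receptor genes (0.642%) and 2 of 329 vomeronasal receptor genes did. Many replication-dependent histone genes are near-identical in sequence, and reads may be split among them. Without the KO 18 h input the counts were 17 of 21 early LPS, 5 of 10 late LPS, 8 of 10 interferon-response, 54 of 64 histone, 11 of 15 lysosome, 7 of 10 reference, 5 of 12 glycolysis and 55 of 80 ribosomal protein genes, and 9 of 12 macrophage markers, against 26.1% of all genes. They were then 1 of 39 Hox genes, 15 of 1091 olfactory and 2 of 329 vomeronasal receptor genes, and none of the neuron, liver and muscle genes. The counts for markers of the other marrow cells at gene starts did not move. In the highest groups of genes by Pol II and H3K27ac level, 35.9 and 44.1% had one, and 73.6 and 85.3% without the KO 18 h input. Median Pol II tags at WT 0 h were 490 for early LPS, 75.6 for interferon-response and 3.91 for late LPS genes. In the highest Pol II group the median was 264. Whether the lists differ from genes of like level was not tested.

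At early LPS genes with a recurring region at the start, input tags there were mostly higher after 1 h of LPS. Nfkbia, encoding the NF-kB inhibitor IkBa, had 0, 83.4 and 51.4 input tags per 10 M within 2500 bp of its start in WT at 0, 1 and 18 h. In KO it had 20.6, 90.5 and 0. Cxcl2, a neutrophil-attracting chemokine, had 6.51, 91.7 and 34.6 in WT and 21.7, 79.9 and 3.41 in KO. For both genes the 1 h input is the highest of each genotype. Tnfaip3, a ubiquitin-editing inhibitor of NF-kB signalling, had 12.4, 90.1 and 44.3 in WT and 30.4, 54.7 and 5.66 in KO. Tnf had 41.9, 97.4 and 66.6 in WT and 45.7, 104.0 and 0 in KO. A 0 means that no region of that list passed the search within the window, not that no read was present. The lists behind a recurring region need not all reach the window, as at Nfkbia, where the region spans 11134 bp. Jun and Ptgs2 were also listed at 0 in WT at 0 h, and Rsad2 and Cmpk2 in both genotypes at 0 h. All 13 early LPS genes with a recurring region at the start had more input tags at 1 h than at 0 h in WT, and 11 of 13 did in KO. Of the other 8 genes of the list, 4 were higher in WT and 4 in KO, and 2 and 3 were lower, Egr1 and Ier2 in WT (14.4 to 11.97 and 46.5 to 31.6 tags). Of all 2360 nuclear genes with a recurring region at the start, 77.3% did in WT and 67.5% in KO.

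All 6 interferon-response genes with a recurring region had their highest WT input value at 18 h. Rsad2, encoding the antiviral enzyme viperin, had 0, 62.4 and 100.2 tags at 0, 1 and 18 h in WT and 0, 47.5 and 7.59 in KO. Ifit3, an antiviral RNA-binding family member, had 18.9, 63.2 and 119.2 in WT and 27.8, 49.2 and 12.5 in KO. Acod1, of the late LPS list, had 14.1, 67.8 and 86.2 in WT and 21.9, 59.8 and 15.4 in KO. All 6 interferon-response genes were above 0 h at 1 h in both genotypes and at 18 h in WT, and 2 of 6 at 18 h in KO. Among all 2360 genes the 18 h input was above 0 h for 89.9% in WT and 5.17% in KO, beside the low coverage of the KO 18 h list. Macrophage markers with a recurring region were split at 1 h, with 4 of 8 higher than at 0 h in WT and 3 of 8 in KO. Lyz2, the lysozyme gene, was among those lower, with 64.4, 42.8 and 59.1 tags in WT and 58.6, 38.3 and 7.08 in KO. These are single libraries, and no test was made.

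Recurring regions were AT-rich at their centres and mostly CpG-poor. In windows of 300 bp at the centre, the median GC content was 39.3% for recurring regions, 37.0% for regions of 1 list and 41.7% for windows spaced evenly over the genome. CpG-rich windows (observed to expected CpG over 0.6) made up 4.42%, 1.55% and 1.73% of them. At gene starts these shares were 11.2% and 7.87% for recurring regions and regions of 1 list. Regions of 3, 4 and 5 lists had more at gene starts (14.3, 17.6 and 19.4%), and those of 5 lists more over all positions (5.64%), so the share did not rise up to the recurring regions. Windows with over 50% of bases repeat-masked made up 17.2%, 19.5% and 25.7%. The AP-1 motif TGANTCA was found in 11.3% of recurring windows, in 9.82% of windows from 1 list and in 8.81% of genome windows. In windows of 5 lists it was found in 11.2%, and 16.7% of those were repeat-masked as above, so neither share is particular to recurring regions. Within the recurring regions the motif was found in 12.95% between genes (287 of 2217), 11.6% in gene bodies (453 of 3889) and 8.81% at gene starts (181 of 2055). Windows of 5 lists held it in 13.4% between genes and 8.34% at gene starts. A match is a run of letters and says nothing of binding.

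Most recurring regions coincided with immunoprecipitated regions. Of the 8193, 6862 (83.8%) overlapped an H3K27ac region and 7196 (87.8%) a Pol II region of at least 1 library. Both antibodies had a region at 6400 (78.1%), with a median width of 5754 bp and 31.1% at gene starts. H3K27ac alone was found at 462, of which 70.1% lay between genes. Pol II alone was found at 796, of which 677 (85.1%) lay in gene bodies. Neither was found at 535 (6.53%), with a median width of 2720 bp and 62.1% between genes. With the 5 other inputs alone, 81.7% overlapped an H3K27ac region, 84.9% a Pol II region and 7.86% neither. Wider regions can meet an immunoprecipitated region more easily. The same shares for input regions of 1 to 5 lists are not given here, so the overlap is not shown to be particular to recurring regions. Seen from the other side, 12.6% of merged H3K27ac regions overlapped a recurring region and 61.4% only input regions of 1 to 5 lists. For Pol II it was 9.40 and 47.5%.

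H3K27ac density was higher in regions that overlap a recurring region than in all others. Regions of the 18 H3K27ac libraries merged into 65218, of which 8189 overlapped one. Across libraries the mean of the median densities was 56.96 tags per kb in these and 25.2 in the other 57029, with ranges of 48.7 to 70.7 and 19.9 to 33.5. The log2 ratio was 1.18 ± 0.12 (SD, n = 18 libraries) and was positive in 18 of 18 libraries (exact two-sided sign-flip permutation test, p = 7.6e-06, the smallest that 18 libraries allow). At gene starts the ratio was 0.76 ± 0.06 and away from them 0.87 ± 0.11. Among merged regions of 2 to 10 kb it was 0.54 ± 0.06, smaller than over all widths. Against regions that overlap input regions of 1 to 5 lists it was 0.98 ± 0.09, and against those that overlap none 1.83 ± 0.18. Without the KO 18 h input it was 1.26 ± 0.14. All of these were positive in 18 of 18 libraries.

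Pol II density differed in the same direction, by less when medians were compared. With means in place of medians the log2 ratio was 1.03 for Pol II and 0.87 for H3K27ac. Its 18 libraries merged into 70903 regions, of which 6665 overlapped a recurring region. The mean of the median densities was 24.9 tags per kb in these (21.1 to 27.2 over libraries) and 15.6 in the other 64238 (13.8 to 17.8). The log2 ratio was 0.67 ± 0.10 (SD, n = 18), positive in 18 of 18 libraries (exact sign-flip permutation p = 7.6e-06). At gene starts it was 0.19 ± 0.09, away from them 0.40 ± 0.07, among regions of 2 to 10 kb 0.39 ± 0.10 and without the KO 18 h input 0.77 ± 0.12. Libraries of 1 antibody share the recurring regions and their gene set, so the test speaks for these libraries and not for independent loci. Immunoprecipitated tags were not corrected for input. Recurring regions were chosen by input and had median input densities of 10.9 to 14.4 tags per kb over the 6 inputs. At gene starts the Pol II densities behind the ratio were 31.4 and 27.6 tags per kb. The part of input background in these differences was not tested for either antibody.

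A large part of both immunoprecipitated libraries fell in regions that overlap a recurring region. For H3K27ac the 3 WT libraries had 37.6, 38.8 and 37.99% of their tags there before LPS, 40.01, 40.2 and 41.1% after 1 h, and 43.9, 43.6 and 44.5% after 18 h. The KO libraries had 38.9, 38.8 and 38.7% before LPS, 42.1, 40.6 and 39.7% after 1 h, and 40.7, 44.2 and 41.6% after 18 h. In both genotypes every LPS library lay above every 0 h library. In such bulk chromatin, more cells with a signal and more signal per cell cannot be told apart. Averaged over genotypes, the share was 2.16 points higher after 1 h and 4.63 points higher after 18 h than before LPS (exact permutation within genotype, p = 0.005 each, the smallest that 400 relabelings allow; 0.0075 after Benjamini-Hochberg adjustment over 6 tests). This result depends on the KO 18 h input. With regions that recur in the other 5 inputs, the change was -0.13 points after 1 h (exact permutation p = 0.76) and 2.096 points after 18 h (exact permutation p = 0.085). KO and WT differed by -0.28 points (exact permutation within time, p = 0.59; adjusted 0.59). As a share of the tags in all regions, KO was 0.95 points lower (a difference of -0.95, exact permutation p = 0.032).

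The Pol II share moved further. WT libraries had 37.1, 42.5 and 42.5% of their tags in such regions before LPS, 54.5, 52.9 and 54.5% after 1 h, and 50.2, 50.5 and 50.7% after 18 h. KO libraries had 42.6, 42.01 and 43.4% before LPS, 55.8, 54.3 and 54.1% after 1 h, and 49.99, 50.3 and 49.5% after 18 h. The times did not overlap in either genotype, and WT library 1 at 0 h was the lowest of all. Averaged over genotypes, it was 12.7 points higher after 1 h and 8.52 points higher after 18 h than before LPS (exact permutation p = 0.005 each, adjusted 0.0075). With the KO 18 h input left out of the rule the changes were 11.5 and 8.76 points (exact permutation p = 0.005 each). They were smaller as a share of the tags in all regions (9.52 and 3.53 points) and where recurring regions had to cover at least 50% of a region (7.95 and 2.64 points, exact permutation p = 0.005 for each of the 4). KO and WT differed by 0.74 points (p = 0.36, adjusted 0.43, exact permutation).

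The sums behind these shares move with how much sequence passed the search. Pol II regions that overlap a recurring region covered 97.8 ± 2.91 Mb at 0 h, 88.2 ± 3.01 Mb at 1 h and 103.1 ± 3.62 Mb at 18 h in WT (SD, n = 3). Its mean density was 41.6 ± 2.40, 61.2 ± 1.32 and 48.97 ± 1.62 tags per kb. In the other regions the density was 30.3 ± 1.501, 36.4 ± 1.23 and 34.1 ± 1.86 tags per kb over 90.3, 63.2 and 85.8 Mb. At 1 h the sequence covered fell less in recurring than in other regions, and the density there was higher than at 0 h in every WT library. For H3K27ac in WT, 37.4 ± 1.24, 40.3 ± 1.25 and 37.3 ± 2.23 Mb were covered at 102.0 ± 3.96, 100.3 ± 1.84 and 118.3 ± 6.35 tags per kb. The change in KO minus that in WT was -0.29 and -2.57 points for H3K27ac and -1.20 and -2.50 points for Pol II at 1 and 18 h. Exact permutation p-values were 0.75, 0.05, 0.78 and 0.12, and 0.2 or more after adjustment over 4 tests.

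**Figure D4:**
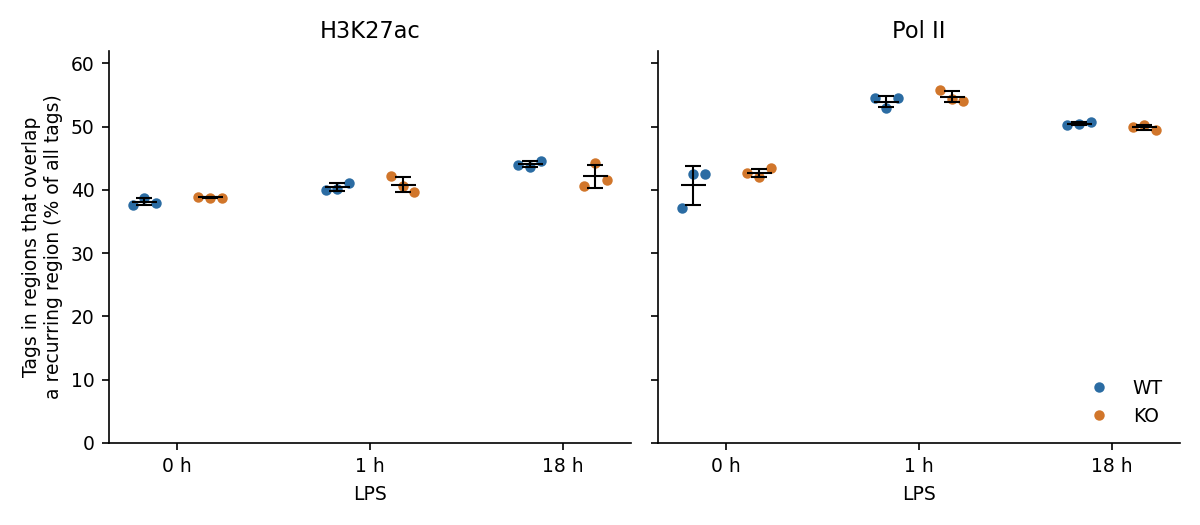
Percentage of all tags of an H3K27ac (left) or Pol II (right) library in regions that overlap a recurring region, by LPS time and genotype (points, libraries; bars, mean ± SD, n = 3). Pol II libraries sit at 37.1 to 43.4% before LPS, 52.9 to 55.8% at 1 h and 49.5 to 50.7% at 18 h, and H3K27ac libraries between 37.6 and 44.5%.

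Single regions were compared with limma on log2(normalised tags + 10), fitted to all merged regions of an antibody, with calls at an adjusted p under 0.05 and an absolute log2 change over 1. At 1 h of LPS, 1865 of 6943 H3K27ac regions at recurring regions were called (26.9%), against 29.4% of all 47703 tested, and 993 were higher and 872 lower. The share called higher was 14.3% against 11% of all, and the share called lower 12.6% against 18.4%. At 18 h, 2226 of 6883 were called (32.3%), against 35.6% of all, with 1008 higher and 1218 lower. The shares higher and lower were 14.6 and 17.7%, against 12.1 and 23.5% of all. Over all levels the share called was near that of all regions at both times. Among the 20% of regions with the highest level, 25.5% of those at recurring regions and 23.3% of the others were called at 1 h. At 18 h it was 27.4 and 24.3%. Differences between these shares were not tested. The share lower was smaller than over all regions at both times. With regions recurring in the 5 inputs other than KO 18 h, 27.8% and 33.6% were called at the 2 times. The filter left out 1246 regions at 1 h and 1306 at 18 h that were found in too few libraries.

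Pol II calls were more frequent. At 1 h, 2632 of 5388 Pol II regions at recurring regions were called (48.9%), against 41.1% of all 35134 tested. Of these 942 were higher (17.5%, against 8.72% of all) and 1690 lower (31.4%, against 32.4%). At 18 h, 1878 of 5399 were called (34.8%, against 27.7%), with 931 higher (17.2%, against 11.4%) and 947 lower (17.5%, against 16.3%). Regions at recurring regions have higher levels, and among the 20% of regions with the highest level 52.6% of them and 55.5% of the others were called at 1 h and 36.0 and 30.2% at 18 h. At 1 h 19.8% of them were called higher, against 9.97% of the others. With regions recurring in the 5 inputs other than KO 18 h, 49.4% and 33.8% were called. The filter left out 1277 and 1266 regions.

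The split by direction depends on the scale. Centring each library on the regions common to all libraries moved the median change of all tested regions from -0.56 to 0.15 for Pol II at 1 h, from -0.24 to -0.08 for H3K27ac at 1 h and from -0.28 to -0.05 for H3K27ac at 18 h. The higher share of calls at recurring regions then went from 35.8 to 63.3% for Pol II at 1 h (49.8% after quantile normalisation), from 53.2 to 64.8% for H3K27ac at 1 h and from 45.3 to 58.6% at 18 h. The median change of regions at recurring regions was -0.41 for Pol II at 1 h, above the -0.56 of all regions. For H3K27ac the medians were -0.03 against -0.24 at 1 h and -0.06 against -0.28 at 18 h.

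Among the largest Pol II gains at 1 h was that at Acod1 (chr14:103011030-103066309). WT libraries had 282.2, 318.4 and 272.2 normalised tags before LPS, 42180, 44400 and 45350 after 1 h and 37170, 35100 and 35520 after 18 h, and the groups were far apart. The log2 change averaged over genotypes was 7.28 ± 0.06 (SE) at 1 h and 7.36 ± 0.06 at 18 h (limma, adjusted p = 7.0e-21 and 6.0e-21). The recurring input regions inside held 157, 758 and 764 input tags in WT and 267, 667 and 85.6 in KO. At Gbp7, an interferon-induced GTPase (chr3:142492568-142553503), WT had 88.2, 109.3 and 91.4 Pol II tags at 0 h and 15190, 15030 and 15650 at 1 h (log2 change 7.57 ± 0.09, limma adjusted p = 2.6e-19). Input tags there were 31.3, 427 and 433 in WT at 0, 1 and 18 h and 78.6, 286 and 34.5 in KO. At Olr1, the receptor for oxidised LDL, Pol II was listed at 0, 0 and 6.71 at WT 0 h, at 1870, 1840 and 1931 at 1 h and at 0 in all 3 libraries at 18 h.

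Pol II fell at 1 h at Slc40a1, the iron exporter ferroportin (chr1:45898784-45927484), from 1362, 1592 and 1529 tags in WT to 7.58, 8.05 and 0 (log2 change -6.71 ± 0.17, limma adjusted p = 1.5e-15). It was back at 1258 to 1323 tags at 18 h in WT. Mmp12, macrophage elastase (chr9:7334491-7368610), had 5568, 5560 and 5270 tags before LPS, 3422, 3552 and 3545 after 1 h and 15.8, 5.98 and 0 after 18 h in WT, and its change at 18 h was the largest of the named falls (-8.90 ± 0.20, limma adjusted p = 8.2e-16). Spp1, encoding osteopontin (chr5:104432929-104446672), went from 12490, 11670 and 10770 to 180.5, 170.3 and 175.8 tags at 18 h (-5.94 ± 0.08, limma adjusted p = 8.7e-19). Input tags in WT changed less than Pol II at these loci, with 48.2, 35.1 and 46.0 at 0, 1 and 18 h at Slc40a1, 150.1, 192.1 and 109.5 at Mmp12 and 176, 189 and 131 at Spp1. Input was summed over recurring regions of 8486, 23564 and 19275 bp in total, and Pol II over 28701, 34120 and 13744 bp. By the rule a recurring region is listed in every input, so its input tags could not fall to 0. In KO the input tags were 70.0, 53.1 and 6.95, 194.4, 209.7 and 13.1, and 204.3, 193.9 and 8.62, with the 18 h values from the list that covered little of each region.

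Of the named regions, H3K27ac rose most at a stretch 14086 bp from Mrpl39 (chr16:84697374-84721656). WT libraries had 18.1, 27.9 and 17.3 tags before LPS, 2451, 2523 and 2473 after 1 h and 2443, 2266 and 2466 after 18 h (log2 change 6.39 ± 0.29 at 1 h, limma adjusted p = 4.0e-11). KO libraries had 1994, 1118 and 1180 tags after 1 h and 1137, 5140 and 5084 after 18 h, with library 1 apart from the others at both times. Its input tags were 17.7, 422.5 and 214.2 in WT and 24.2, 338.5 and 5.40 in KO. Slfn1, a Schlafen gene of the interferon response (chr11:83114290-83127131), rose at 18 h from 64.5, 48.0 and 24.1 to 1783, 1849 and 1919 tags (5.24 ± 0.18, limma adjusted p = 7.9e-13). Its input tags were 9.41, 27.5 and 135.4 in WT and 18.6, 24.7 and 6.82 in KO, where H3K27ac at 18 h was at 1529, 2473 and 2251 tags. Near Qpct (chr17:79088583-79106426) H3K27ac went from 711.2, 682.6 and 719.2 tags at 0 h to 1873, 1802 and 1813 at 1 h and 8.98, 11.7 and 8.35 at 18 h. At 1 h the KO libraries there had 1781, 523.2 and 573.1 tags, so KO library 1 lay with WT and the other two did not.

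Other named regions lay away from gene starts. Near Trps1 (chr15:50736757-50753894) WT H3K27ac was at 7.06, 9.07 and 0 tags before LPS, 644.5, 669.2 and 586.2 after 1 h and 0, 24.4 and 6.10 after 18 h. Near Pex5 (chr6:124371721-124378850) it fell from 1175, 1253 and 1229 tags to 11, 7.23 and 7.38 at 18 h. The loss near Pex5 had a log2 change of -6.11 ± 0.22 (limma adjusted p = 1.4e-12). Pol II near Rab3gap1 (chr1:127928816-128023087) fell at 1 h from 4218, 4810 and 4836 tags in WT to 13.8, 14.95 and 0, and near Rcbtb2 (chr14:73165305-73188601) from 1458, 1732 and 1724 to 0, 0 and 6.47. Input tags near Rab3gap1 were 202.3, 141.4 and 232.8 in WT and 243.7, 147.2 and 36.2 in KO. All 36 named results kept their direction and call under each alternative in which they could be tested (304 values).

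The change in input tags differed by the Pol II call at the same place. In the recurring regions under 50 tags per kb, the median log2 change of input tags over the whole region from 0 to 1 h in WT was 1.12 where Pol II was called higher (1383 regions), 0.56 where it was not called (3324) and 0.13 where it was called lower (2027). In KO the medians were 0.63, 0.19 and -0.15. At 18 h they were 1.40, 0.84 and 0.37 in WT (1270, 4296 and 1156 regions). In KO at 18 h they were -1.77, -2.02 and -2.37, in the library that covered little of each region. The order was the same in all 4 comparisons, and the ranges overlapped, with quartiles of 0.66 and 1.71 for higher and -0.30 and 0.59 for lower calls in WT at 1 h. By H3K27ac call the medians at 1 h were 1.29, 0.52 and -0.06 in WT and 0.79, 0.17 and -0.35 in KO. The 1 h and 18 h values share the 0 h input of their genotype, each value is from 1 library, and no test was made. Tags over a whole region move with the length that passed the search. Per kb covered the WT medians were 0.14, 0.06 and 0.02 at 1 h and 0.32, 0.25 and 0.20 at 18 h for higher, not called and lower, and the KO medians 0.16, 0.10 and 0.07, and 0.03, 0.02 and -0.0039.

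**Figure D5:**
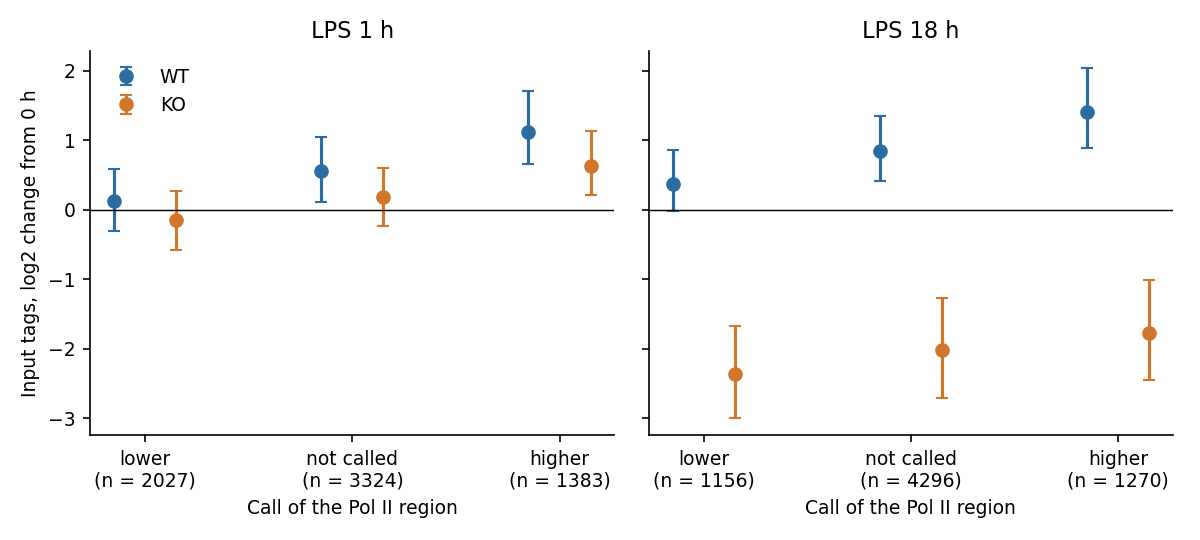
Median log2 change of input tags from 0 h in recurring regions (bars, quartiles over regions), by the call of the Pol II region there at 1 h (left) and 18 h (right) of LPS, for the WT and KO inputs. At 1 h in WT the median rises from 0.13 where Pol II was called lower to 1.12 where it was called higher, and in KO from -0.15 to 0.63. The KO values at 18 h lie between -2.37 and -1.77.

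At Nr4a1, the targeted gene, no recurring region was found. Pol II tags in the gene were 232.5 ± 7.79 in WT and 100.6 ± 30.99 in KO at 0 h (SD, n = 3), 26.3 ± 3.74 and 35.8 ± 2.06 at 1 h, and 4.48 ± 3.95 and 0 in all 3 libraries at 18 h. The level was lower in KO at 0 h and did not vanish. The labels do not say which part of the gene was deleted, and tags outside that part check nothing.

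KO and WT differed at few recurring regions. Averaged over the times, 49 of 7161 H3K27ac regions were called (0.684%, against 0.944% of all). Of these 29 were higher in KO (against 0.596% of all regions tested) and 20 lower (against 0.348%). For Pol II it was 41 of 5619 (0.730%, against 0.592% of all), with 23 higher (against 0.381%) and 18 lower (against 0.211%). The counts became 150 and 195 with a pseudocount of 1. In the inputs, 81 of 8161 recurring regions on chromosomes 1 to 19, X and Y had more tags in every KO than in every WT input (0.993%, against 0.25% of all 195870 merged input regions, with a list that lacks a region set to 0). In 675 every WT input was above every KO input (8.27%, against 2.2% of all), and in 701 above the KO inputs of 0 and 1 h (8.59%, against 2.25%). Regions missing from a list of the higher genotype could not be counted, which never applies to a recurring region, so these shares are descriptions with no test.

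The named regions higher in KO all lay at or nearest to Ifi202b or nearest to Ifi203, interferon-inducible genes of the p200 family on chromosome 1. At chr1:173970965-173986062 over Ifi202b, Pol II was listed at 0 in the WT libraries of 0 h and 18 h and at 0, 8.97 and 6.47 at 1 h. KO had 359.5, 357.3 and 439.3 tags before LPS, 1168, 1146 and 1195 after 1 h and 3226, 3139 and 3181 after 18 h. H3K27ac (chr1:173973082-173983562) was listed at 0 in the WT libraries before LPS and after 18 h, with 8.52 to 24.2 tags after 1 h. KO libraries had 577 to 596 tags before LPS, 440.2 to 469.9 after 1 h and 211.7 to 411.5 after 18 h. Input tags in the recurring regions there were also higher in KO, with 329.1, 391.1 and 233.2 at 0, 1 and 18 h against 61.4, 143.6 and 119.7 in WT. Reads may be split between similar genes of this family.

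Named regions lower in KO lay near Uap1 and Cd244a and at Ifi213 and Ifi209 on the same chromosome, near Gvin1 on chromosome 7 and near Tmcc1 on chromosome 6. Near Gvin1, a very large interferon-inducible GTPase (chr7:106235017-106241482), WT libraries had 535 to 540 H3K27ac tags at 0 h, 1161 to 1278 at 1 h and 2522 to 2644 at 18 h. KO libraries had 197 to 201, 348 to 420 and 759 to 1736 tags, the 759 being that of library 1 (log2 difference -1.35 ± 0.12, limma adjusted p = 1.6e-06). Its input tags were 81.1, 118.3 and 199.4 in WT and 20.7, 31.7 and 24.4 in KO. At Ifi213 (chr1:173553653-173600820) Pol II was listed at 0 in all KO libraries of 0 and 1 h, against 5.82 to 12.7 and 155.6 to 194.7 in WT. At 18 h it had 577 to 628 tags in KO and 2931 to 3020 in WT. Input tags there were 5.70 to 15.0 in all 6 libraries.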

How the data were processed

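H3K27ac and Pol II were profiled by chromatin immunoprecipitation with sequencing in 36 libraries beside 6 inputs. Skewer trimming and alignment to mm10 with HISAT2 2.1.0 were done by the authors (submitters' processing notes), who then removed duplicates and searched each library singly with HOMER (version not given in the sources used here). Per the file headers, windows of 500 bp past a Poisson p-value of 0.001 were stitched within 1000 bp, without input as control, at 1 tag per bp (2 in 4 libraries). A wide-region search of this kind yields fewer, longer regions than a search for narrow peaks, and its threshold in tags per kb depends on depth. The deposited signal is the number of tags of a region per 10000000 tags of the library, and the deposited score ranks a region and was used only in the alternative with equal list lengths. The lists' clonal fold column was not used. Libraries held 13.5 to 55.4 M tags. In the libraries checked the signal stepped in fractions of a tag and a list leaves out what did not pass the search, so no count test was run, and a region missing from a list was set to 0.

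Regions were merged in Python 3.11.15 with pandas 2.3.3. Density is the signal per kb covered. Gene starts came from GENCODE vM21. Single regions were tested with limma 3.58.1 (R 4.3.3, intensity trend, 6 group means, pseudocount 10), provided that 2 of the 3 libraries of some group held them, with calls where the absolute log2 change exceeded 1 and p was under 0.05 after Benjamini-Hochberg adjustment over all regions tested. LPS changes were averaged over genotypes and genotype differences over times. Shares of tags were compared with exact permutation tests. The limma step was tested on simulated data. The regions, gene lists and named loci were chosen with earlier results of these data known. Named were the 5 densest, 5 widest and 5 marginal regions, and in each comparison the 3 called regions that moved furthest up and the 3 that moved furthest down among those whose replicates did not overlap, of which the text describes part. Alternatives covered the merging rule, thresholds, scaling, pseudocount and left-out libraries.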

Additional observations from a re-analysis of the deposited data

How the results depend on the processing

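Of 204 alternative values for the main results, 118 stayed on the same side of the threshold or within the spread of the main value, 62 counts or values moved further, 13 lost and 1 gained a call, and 10 changed sign. The density of both antibodies in recurring regions was higher in every library under every alternative, with log2 ratios of 0.54 to 1.83 for H3K27ac and 0.19 to 1.03 for Pol II. Covering by all 6 lists gave a median width of 501 bp and 16.0% at gene starts. With the 27554 best-scored regions of each list, 668 recurred (median 8177 bp, 32.04% at gene starts), and with a common density minimum 2944 (6568 bp, 27.4%). Leaving out each input gave 8363 to 22787 regions, of 3616 to 4561 bp and with 23.4 to 24.1% at gene starts, and the highest count is that without the KO 18 h input. Windows of 1000 and 500 bp gave 21.9 and 18.4% at gene starts, and all annotated genes 35.9%.

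Input density changes at WT 1 h, WT 18 h, KO 1 h and KO 18 h were 0.49, 0.79, 0.12 and -1.91 over whole regions, 0.10, 0.27, 0.11 and -0.022 in positions covered by all lists, 0.076, 0.27, 0.11 and 0.017 at gene starts, and 0.053, 0.22 and 0.092 (the former 3) away from them. Divided by the list's share of tags in regions they were -0.55, -0.61, 0.12 and 1.36, and by its threshold, an alternative chosen after seeing the data, 0.11, 0.11, -0.0094 and -0.066. The cause was not tested.

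The H3K27ac share without the KO 18 h input (added after seeing the data) changed by -0.13 at 1 h and 2.096 points at 18 h. Leaving out each replicate gave 1.83 to 2.44 and 4.38 to 4.92 points for H3K27ac and 11.4 to 13.3 and 7.65 to 9.19 for Pol II after 1 and 18 h. In these the smallest exact p that the design allows is 0.056. The difference between KO and WT was -0.58 to 0.18 points for H3K27ac and 0.0082 to 1.22 for Pol II, the positive value for H3K27ac being that without replicate 3 and the lowest for Pol II that without replicate 1. As a share of the tags in all regions it was -0.95 for H3K27ac (p = 0.032, permutation) and -0.47 for Pol II, and -0.11 for Pol II where recurring regions had to cover at least 50% of a region.

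Counts of called regions are given in the order 1 h, 18 h and KO. Positions covered by all lists gave 948, 1107 and 22 for H3K27ac and 1545, 1096 and 25 for Pol II. Without the KO 18 h input they were 4555, 5448 and 116, and 5891, 4028 and 70, which are 27.8, 33.6 and 0.691%, and 49.4, 33.8 and 0.564% of those tested. Regions found in every library gave 27 for H3K27ac in KO and 1642, 1211 and 20 for Pol II, and covering at least 50% gave 1491, 1108 and 27 for Pol II. A pseudocount of 1 gave 150 and 195 in KO. Leaving out replicates moved no count by over 1.5 times.

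In the median pair, same-numbered libraries did not deviate together (45 pairs per antibody, median correlations of -0.0039 for H3K27ac and 0.0097 for Pol II). Single pairs ranged from -0.39 to 0.05 for H3K27ac and from -0.15 to 0.16 for Pol II. These values cannot tell whether same-numbered libraries share an animal or a batch. With a replicate block the counts were 1864, 2225 and 47 for H3K27ac and 2632, 1878 and 41 for Pol II, and the LPS changes in share had p = 0.031 in exact permutation tests. Most recurring regions lie close to the search threshold of a single input, whose depth sets that threshold.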

Other observations

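Input tags differed by genotype at some loci, several of them repeated gene arrays. The tags are summed over the length each list covers and move with that length. In 24 of the 81 recurring regions with every KO input above every WT input, the lowest KO value was over 1.5 times the highest WT value. The largest ratio was at Speer4d, a member of a rodent family of testis-expressed genes in tandem copies (chr5:15587896-15619103), with 12.4, 41.7 and 19.5 input tags in WT and 305, 307 and 672 in KO at 0, 1 and 18 h. Other regions of this array, near Speer4e (chr5:14946622-14964219), had 49.4, 35.8 and 13.9 in WT against 239, 249 and 448 in KO. On the Y chromosome, chrY:90796930-90813456 had 133.5, 179.4 and 195.7 in WT against 772, 878 and 1061 in KO. Near Itln1 (chr1:171540072-171544206) the values were 5.71, 9.50 and 9.18 against 60.5, 45.4 and 36.3. These loci were chosen after their values were seen, and there is 1 input per genotype and time.

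Some of the regions that differed between genotypes lay on 1 stretch of chromosome 1. Of the 49 H3K27ac and 41 Pol II regions at recurring regions that were called, 9 and 10 lay in the 5 Mb from position 170 Mb, which hold 0.740% and 0.783% of those tested, and the other 40 and 31 lay elsewhere. Over all called regions 57 of 486 (11.7%) and 27 of 241 (11.2%) lay there. The stretch was chosen after the values were seen. Of the 701 recurring regions with every WT input above the KO inputs of 0 and 1 h, that with the largest ratio, 58631 bp from Lyn (chr4:3736746-3741767), had 34.6, 42.8 and 57.4 input tags in WT and 5.74, 7.36 and 5.27 in KO.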
